A study of Mus musculus with 4 samples.

Results

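Conventional dendritic cells (cDCs) present antigen to T cells, and in the thymic medulla they share the display of self-antigens with medullary thymic epithelial cells (mTECs). They fall into type 1 (cDC1), which depends on the transcription factors BATF3 and IRF8 and takes up dead cells, and type 2 (cDC2), which depends largely on IRF4. A set of 10 genes that mark these cells was followed through RNA sequencing of sorted mouse mTECs, 10 of the 23366 gene symbols counted. The genes were picked by symbol as known markers, and the set holds 3 genes shared by both types (Flt3, Itgax and Zbtb46), 4 cDC1 genes (Irf8, Batf3, Xcr1 and Clec9a) and 3 cDC2 genes (Irf4, Sirpa and Cd209a). All 10 genes had reads in all pools, from 52 to 2926 per gene and pool, and all 10 passed the filter on low counts that kept 10865 genes.

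The mTECs came from wild-type C57BL/6 mice aged 6 to 8 weeks and were sorted as PI- CD45- MHCII+ Ly51low cells, so that dead cells, cells with CD45 on their surface and cortical epithelial cells were to be left out. Each RNA sample was a pool of 10 mice of 1 sex, with 2 female pools and 2 male pools. The count table assigned 3508921 and 1976272 reads to genes in the female pools (pools 1 and 2) and 7103627 and 3344471 in the male pools. Levels within a gene are given as normalized CPM, read counts scaled to a common total after TMM correction for RNA composition, and levels between genes as RPKM, which also divide by exonic length in kilobases. Because a pool is a bulk sample, fewer cells of a type and less RNA per cell cannot be told apart.

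The dendritic cell genes were measured in pools whose other transcripts did not all match the sort. Ptprc, which encodes CD45, had 47.9 and 30.7 RPKM in female pools 1 and 2 and 52.1 and 37.5 RPKM in male pools 1 and 2. Epcam, the epithelial adhesion molecule, had 18.0, 20.8, 21.5 and 25.2 RPKM in the same order, and Aire, the regulator that marks mature mTECs, had 5.02, 8.24, 5.13 and 7.51. Among keratin genes of epithelium, Krt8 and Krt18 averaged 49.1 and 42.1 RPKM over the 4 pools, near the 42.0 of Ptprc, and Krt5 and Krt14 averaged 3.51 and 5.82, while Spint2, which is not confined to the thymus, averaged 184. Enpep, which encodes the Ly51 antigen of cortical epithelial cells, had 1 count in each pool numbered 1 and 0 in each pool numbered 2. H2-Aa, an MHC class II gene carried by mTECs, dendritic cells and B cells alike, averaged 7583 RPKM. H2-Ab1, the partner chain of H2-Aa, ran from 22078 to 29047 normalized CPM. Male pool 1 stood apart in thymocyte genes, which summed to 1155 normalized CPM there and to between 333 and 426 in the other pools. Over all genes, each pair of pools with male pool 2 differed more (chi-square per degree of freedom 26.2 to 99.6) than any other pair (11.0 to 20.6). The fold changes of the 10 genes are therefore also given without either male pool, and the summed levels without male pool 1.

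Per exonic length the 10 genes spanned from 4.49 to 137 RPKM as means over the 4 pools. Batf3, which encodes the leucine zipper factor that cDC1s require, averaged 137 RPKM but ran from 42.6 in male pool 1 to 291 in male pool 2. Irf8, which encodes the factor that commits progenitors to the cDC1 and plasmacytoid lineages, followed at 75.7. Flt3, the receptor for the growth factor on which dendritic cells depend, averaged 53.6, and Cd209a, a C-type lectin of the DC-SIGN family, 45.5. Xcr1, the cDC1 receptor for the chemokine XCL1, and Irf4 lay together at 22.0 RPKM each. Itgax, which encodes CD11c, averaged 16.6, Sirpa, the receptor for CD47, 13.9, Clec9a, the cDC1 receptor for actin exposed by dead cells, 8.14 and Zbtb46, a transcription factor gene that separates cDCs from other myeloid cells, 4.49. In this order the ranges over pools failed to overlap between Cd209a and Xcr1 and between Clec9a and Zbtb46, and every other neighbouring pair overlapped. Of all genes in the table with an exonic length, 2.57% lay above Batf3 and 28.3% above Zbtb46. With the length of the longest transcript in place of all exons, Irf8 (154 RPKM) moved above Batf3 and Sirpa above Itgax.

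Set against other genes of the same pools, Flt3, Batf3, Irf8 and Cd209a lay above Epcam in RPKM in all 4 pools, and Itgax, Zbtb46, Clec9a and Sirpa lay below it in all 4. In all 4 pools, 8 of the 10 genes lay above Aire, and Zbtb46 lay below it. No dendritic cell gene lay above Ptprc in every pool, and 6 (Itgax, Zbtb46, Xcr1, Clec9a, Irf4 and Sirpa) lay below it in every pool. The other 4 (Flt3, Batf3, Irf8 and Cd209a) lay above Ptprc in every pool but male pool 1, where Ptprc was highest. The level of B cell and macrophage genes was higher again, with Cd79a at 1245 and Lyz2 at 1464 RPKM as means over the pools.

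**Figure D1:**
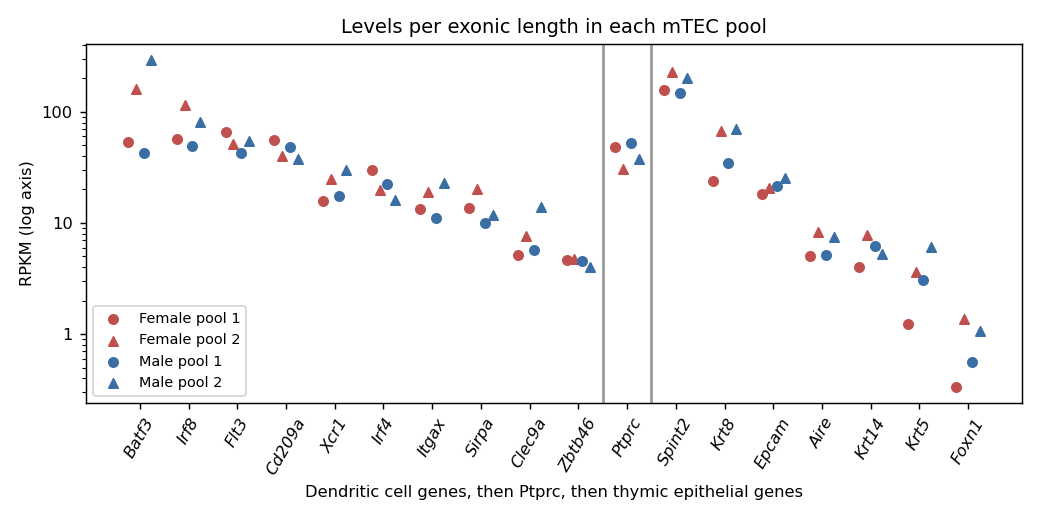
RPKM (log axis) of the 10 dendritic cell genes in order of their mean, of Ptprc and of 7 thymic epithelial genes, with 1 point per pool (red, female; blue, male; circles, pool 1; triangles, pool 2). Batf3 had the widest spread of the dendritic cell genes, from 42.6 to 291 RPKM, and Zbtb46 lay between 4.01 and 4.75 in all 4 pools.

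The genes shared by both dendritic cell types differed in how much they varied. Flt3 had 410 and 315 normalized CPM in female pools 1 and 2 and 263 and 337 in male pools 1 and 2. Its highest pool was female and its lowest male, but the sexes overlapped. The values for Itgax were 53.6 and 76.8 in females and 44.4 and 93.1 in males, so that both pools numbered 2 lay above both pools numbered 1, as they did for 26.5% of all tested genes. Zbtb46 had 39.2, 40.4, 39.0 and 34.1 normalized CPM in the same order. Its highest pool was 1.18-fold its lowest, the narrowest range of the 10 genes, and both female pools lay above both male pools, with both pools numbered 1 nearly level. Flt3 and Itgax are not confined to cDCs: plasmacytoid dendritic cells and early progenitors also express Flt3, and macrophages also express Itgax.

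All 4 cDC1 genes had their higher value of each sex in pool 2. Irf8 had 403 and 820 normalized CPM in female pools 1 and 2 and 348 and 566 in male pools 1 and 2. For Batf3 the female pools had 37.9 and 114 and the male pools 30.3 and 207. Xcr1 had 69.8 and 110 in females and 77.9 and 134 in males, and Clec9a had 17.3 and 25.6 in females and 18.9 and 46.7 in males. For each of these genes both pools numbered 2 lay above both pools numbered 1, against 26.5% of all tested genes, so the sexes overlapped. Xcr1 and Clec9a, the receptors most restricted to cDC1s among the 10 genes, kept an RPKM ratio of 3.02, 3.22 and 3.08 in female pool 1, female pool 2 and male pool 1, and of 2.15 in male pool 2, where Clec9a was highest. B cells and plasmacytoid dendritic cells also express Irf8.

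The cDC2 genes did not share 1 pattern. Irf4 had 140 and 93.1 normalized CPM in female pools 1 and 2 and 106 and 76.2 in male pools 1 and 2. Cd209a had 82.8 and 59.1 in females and 71.8 and 56.3 in males. For both genes the pools numbered 2 lay below both pools numbered 1, opposite to the cDC1 genes, as for 29% of all tested genes. Sirpa had 67.1 and 98.0 in females and 49.1 and 58.2 in males, so that it was higher in pool 2 of each sex and both female pools lay above both male pools. B cells and plasma cells also express Irf4, and macrophages also express Sirpa. Cd209a belongs to a tandem family and Sirpa has close relatives, so reads that align to several copies went uncounted and both levels are uncertain. The relatives Cd209d and Cd209e had 1055 and 469 counts over the 4 pools, and Sirpb1a had 20.

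**Figure D2:**
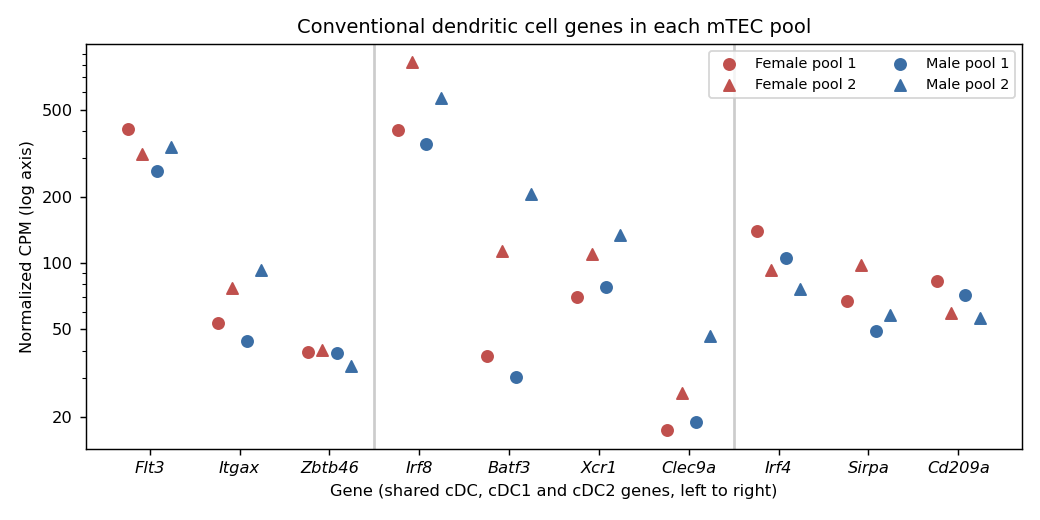
Normalized CPM (log axis) of the 10 genes in each pool, with the shared, cDC1 and cDC2 genes separated by vertical lines (red, female; blue, male; circles, pool 1; triangles, pool 2). For Irf8, Batf3, Xcr1 and Clec9a both triangles lie above both circles, and for Irf4 and Cd209a both triangles lie below both circles.

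The promoters of the factors BATF3, IRF8 and IRF4 are shown because these factors direct the dendritic cell types and their genes ran opposite ways, with Batf3 and Irf8 higher and Irf4 lower in the pools numbered 2. Each run is the 250 bases before the gene's start, from RefSeq on GRCm38.p6 and written 5′ to 3′ along the gene. Capitals mark the letters GAGGAA, found in binding sites of PU.1, and TTCNNNGAA, found in those of STAT factors, on either strand.
Batf3 (chr1:191098164-191098413, plus strand): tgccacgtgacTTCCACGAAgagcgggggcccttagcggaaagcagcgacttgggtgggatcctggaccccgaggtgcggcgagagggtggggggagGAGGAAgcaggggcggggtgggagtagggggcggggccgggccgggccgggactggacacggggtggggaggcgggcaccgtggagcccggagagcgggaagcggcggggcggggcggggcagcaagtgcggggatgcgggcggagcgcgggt
Irf8 (chr8:120736108-120736357, plus strand): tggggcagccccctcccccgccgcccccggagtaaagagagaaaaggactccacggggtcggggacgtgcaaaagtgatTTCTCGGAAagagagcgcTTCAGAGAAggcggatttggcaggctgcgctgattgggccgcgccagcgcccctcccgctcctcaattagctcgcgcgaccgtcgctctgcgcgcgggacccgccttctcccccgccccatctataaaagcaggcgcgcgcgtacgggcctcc
Irf4 (chr13:30748983-30749232, plus strand): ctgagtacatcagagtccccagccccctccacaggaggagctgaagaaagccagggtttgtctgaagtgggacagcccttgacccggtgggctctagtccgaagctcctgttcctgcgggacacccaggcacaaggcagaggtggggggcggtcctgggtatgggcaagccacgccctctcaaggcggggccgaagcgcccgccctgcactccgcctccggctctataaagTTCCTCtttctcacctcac
The windows of Batf3, Irf8 and Irf4 hold 76%, 67.2% and 63.6% G and C. A promoter window was found for 9 of the 10 genes by symbol, and Irf8 has a further start downstream. GAGGAA occurs before Batf3 and Irf4, 2 of 9 genes, and in 23.3% of 32851 such windows of all genes. TTCNNNGAA occurs before Batf3 and Irf8 and in 7.02% of all windows. TGANTCA, found in sites of AP-1 and BATF factors, occurs before Itgax and Zbtb46 and in 6.75% of all windows, and the repeat of GAAA after a gap of 2 bases, found in sites of interferon regulatory factors, in none of the 9 and in 2.98% of all. All 4 motifs were searched on both strands with overlaps between them allowed, and a match is a description of letters only.

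On NCBIM37, the assembly also called mm9 to which the reads were aligned, Batf3 lies on chromosome 1 from 192922293 to 192932822 and Irf8 on chromosome 8 from 123260258 to 123280594, both in plus orientation. Also on the plus strand are Irf4 (chromosome 13, 30841095 to 30858796), Clec9a (chromosome 6, 129358880 to 129374780), Itgax (chromosome 7, 135273061 to 135294171) and Sirpa (chromosome 2, 129418571 to 129457964). The minus strand holds Flt3 (chromosome 5, 148142317 to 148212065), Xcr1 (chromosome 9, 123761436 to 123771246), Zbtb46 (chromosome 2, 181122467 to 181194131) and Cd209a (chromosome 8, 3743395 to 3748984). Exons of Clec9a share 184 bases, 5.52% of its exonic length, with Clec1b on the same strand, which had 14 counts over all pools, and no other gene of the set overlapped an annotated exon of another gene.

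Males were compared with females because the study asks how the sexes differ in the mTEC transcriptome. In edgeR's quasi-likelihood test, adjusted over 10865 genes by the Benjamini-Hochberg method, none of the 10 dendritic cell genes had an adjusted p under 0.05, and 0% of all tested genes did. None of the 10 had an unadjusted p under 0.05 either, against 0.442% of all tested genes. DESeq2 called 3 genes and edgeR's exact test 8 over the whole table, and neither called any of the 10. The median log2 fold change of male over female was -0.13 over the 10 genes and 0.027 over all tested genes. Of the 10 genes, 4 were above 0, against 53.2% of all tested genes. By type the median was -0.12 over the 3 shared genes, 0.42 over the 4 cDC1 genes and -0.35 over the 3 cDC2 genes.

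Sirpa had the lowest p of the 10 (unadjusted p = 0.115, adjusted p = 1 by edgeR's quasi-likelihood test), and its log2 fold change was -0.62, with a standard error of 0.34. Here the female pools averaged 82.5 ± 21.9 normalized CPM and the male pools 53.7 ± 6.46 (SD, n = 2 pools per sex). Clec9a had a log2 fold change of 0.60 (standard error 0.50), from 21.5 ± 5.87 in females to 32.8 ± 19.7 in males. For these 2 genes the fold change was larger than its standard error, and for the other 8 it was smaller. Batf3 averaged 75.8 ± 53.7 normalized CPM in the female and 119 ± 125 in the male pools, and its log2 fold change was 0.64, with a standard error of 0.89. Leaving out male pool 2 gave -1.29, and leaving out male pool 1 gave 1.46, which passed the adjusted threshold (adjusted p = 0.0108 by edgeR's quasi-likelihood test, with male pool 2 alone assumed to vary as the female pools do), so a single pool decided its direction. In that fit without male pool 1, 646 of 11292 tested genes passed, 5.72% of them. The log2 fold change was -0.42 (standard error 0.52) for Irf8, -0.35 (standard error 0.38) for Irf4 and -0.27 (standard error 0.40) for Flt3. It was 0.23 for Xcr1, -0.15 for Cd209a, -0.12 for Zbtb46 and 0.07 for Itgax, with standard errors from 0.30 for Zbtb46 to 0.44 for Itgax. Without male pool 1 the log2 fold changes were 1.13 for Clec9a, 0.57 for Xcr1, 0.51 for Itgax, -0.51 for Sirpa, -0.63 for Irf4, -0.35 for Cd209a, -0.23 for Zbtb46 and -0.12 for both Flt3 and Irf8. Without male pool 2 they were -0.15 for Clec9a, -0.19 for Xcr1, -0.54 for Itgax, -0.73 for Sirpa and -0.14 for Irf4. In that fit Cd209a had 0.018, Zbtb46 -0.020, Flt3 -0.46 and Irf8 -0.80.

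Between the sexes the pools failed to overlap for Zbtb46 and Sirpa, both higher in females, where 11.7% of all tested genes had both female pools above both male pools. None of the 10 had both male pools above both female pools, against 9.47% of all tested genes. With scaling to library size alone, Flt3 took the place of Zbtb46 among the genes higher in both female pools. That scaling moved the median log2 difference between males and females, taken over 10850 genes, from 0.011 to -0.10. Itgax changed sign with it, from a log2 fold change of 0.071 to -0.11.

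**Figure D3:**
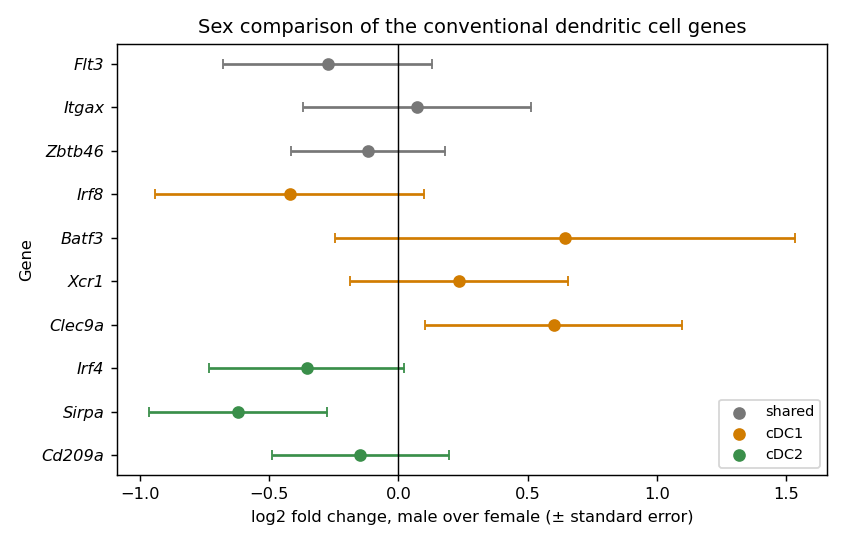
Log2 fold change of male over female for each of the 10 genes, with bars of 1 standard error from edgeR's quasi-likelihood fit (grey, shared; orange, cDC1; green, cDC2). The bars of Clec9a and Sirpa are clear of 0, on opposite sides, and the other 8 cross it.

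The summed levels of each type were compared between the sexes as single values per pool. The 4 cDC1 genes summed to 528 and 1070 normalized CPM in female pools 1 and 2 and to 475 and 953 in male pools 1 and 2. Irf8 made up 76.3%, 76.7%, 73.2% and 59.3% of these sums. The 3 cDC2 genes summed to 290 and 250 in females and 227 and 191 in males, so that both female pools lay above both male pools. The log2 difference of male minus female was -0.16 for the cDC1 sum (exact permutation test over pools, two-sided, p = 0.667) and -0.37 for the cDC2 sum (p = 0.333, same exact test), where 0.333 is the smallest p that 2 against 2 pools allow. Without male pool 1 the cDC2 difference was -0.50. The sum of the 3 shared genes differed by -0.22 (exact permutation test, p = 0.667), and by -0.0068 without male pool 1. The cDC1 difference turned to 0.33 without its most abundant gene, Irf8, and to 0.34 or 0.35 on leaving out male pool 1 or female pool 2.

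The ratio of summed cDC1 to summed cDC2 normalized CPM, in which the scaling cancels, was 1.82 and 4.28 in female pools 1 and 2 and 2.09 and 4.996 in male pools 1 and 2. It did not separate the sexes (log2 difference 0.21, exact permutation test, p = 0.667), and both pools numbered 2 lay above both pools numbered 1. The difference between the sexes was -0.40 without female pool 1, -0.41 without male pool 2, 0.83 without female pool 2 and 0.84 without male pool 1. Within the IRF family, the RPKM of Irf8 over that of Irf4 was 1.92 and 5.89 in females and 2.20 and 4.96 in males, again with both pools numbered 2 above both pools numbered 1. Summed over all 10 genes and divided by Ptprc, the level was 4.74 and 9.80 in females and 3.46 and 7.38 in males (log2 difference -0.43, exact permutation test, p = 0.667). Leaving out female pool 2 or male pool 1 turned that difference to 0.093 or 0.11, and leaving out female pool 1 or male pool 2 gave -0.96 or -0.98.

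The labels number the pools alike in both sexes, and no source used here says what the number stands for, so pool 2 was set beside pool 1 within each sex as a description with no test. Of the 10 genes, 6 were higher in pool 2 of both sexes (Itgax, Batf3, Xcr1, Clec9a, Irf8 and Sirpa) and 2 were lower in both (Irf4 and Cd209a), while 31.3% of all tested genes were higher and 35% lower in both. Batf3 was 3.00-fold higher in females and 6.82-fold higher in males, and it was the sole gene of the 10 at least 2-fold higher in both, where 3.96% of all tested genes were. The ratio was 2.04 and 1.63 for Irf8, 1.58 and 1.72 for Xcr1, 1.48 and 2.47 for Clec9a and 1.43 and 2.10 for Itgax, in females and males. It was 0.666 and 0.720 for Irf4 and 0.714 and 0.784 for Cd209a. Flt3 ran the opposite way in the sexes, at 0.769 in females and 1.28 in males.

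With library size alone as the scaling, 5 of the 10 genes were higher in pool 2 of both sexes and 3 were lower, against 18.3% and 47% of all tested genes. Sirpa then left the higher group and Flt3 joined the lower group. Over 10850 genes, that scaling moved the median log2 ratio of pool 2 over pool 1 from -0.062 to -0.66 in males. In females it moved from -0.010 to -0.046. All 4 cDC1 genes stayed higher and Irf4 and Cd209a stayed lower in both sexes under library size and upper-quartile scaling.

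Of 12 further cDC1 genes, 10 were higher in pool 2 of both sexes and 0 were lower in both, against 31.3% and 35% of all tested genes. With library size alone 6 of the 12 were higher and 0 lower, against 18.3% and 47% of all tested genes. Tlr3, which senses double-stranded RNA, had 2.43, 7.39, 3.81 and 13.8 normalized CPM in female pools 1 and 2 and male pools 1 and 2. Its counts were low, from 9 to 36 in a pool. The most abundant, Id2, a repressor needed for cDC1 development, had 848, 803, 593 and 1089 in the same order. Ppt1 and Snx22 had pool 2 over pool 1 ratios of 1.37 and 1.23 in females and 1.47 and 1.53 in males. Of 10 tested genes among 12 further cDC2 genes, 5 were higher and 2 lower in pool 2 of both sexes (3 and 2 with library size alone). Cx3cr1, a chemokine receptor shared with macrophages, had a ratio of 6.13 in males and 1.17 in females, and Itgam, which encodes CD11b, had 0.694 and 0.414. The most abundant of these, Ltb, a lymphotoxin gene also used by lymphocytes, had ratios of 1.09 and 0.817 in females and males, Clec12a had 1.28 and 1.43, and Klf4 had 0.964 and 2.51.

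**Figure D4:**
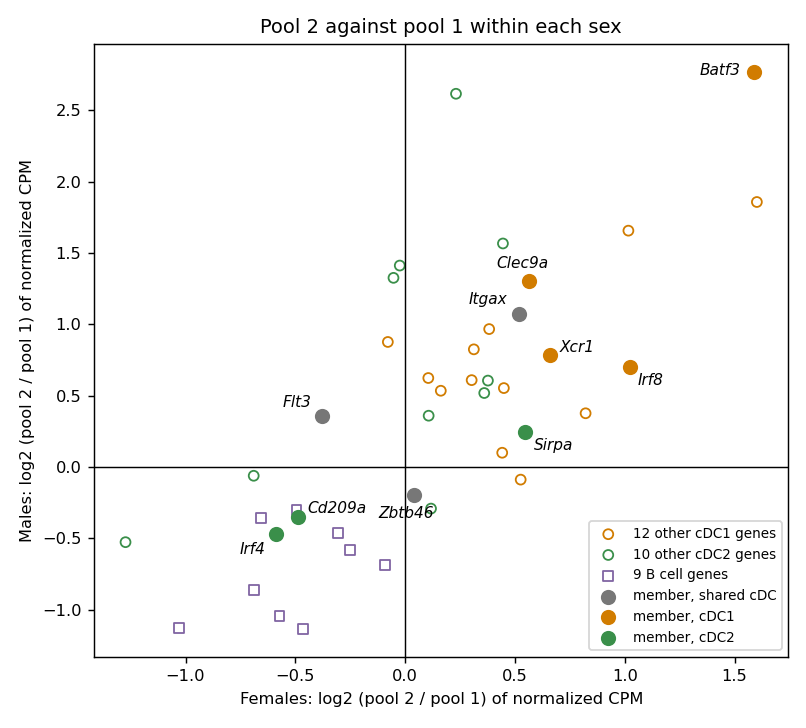
Log2 ratio of pool 2 over pool 1 in females (horizontal axis) and in males (vertical axis), from normalized CPM, for the 10 genes (filled points), further cDC1 and cDC2 genes (open circles) and B cell genes (open squares). Batf3 lies farthest to the upper right among the filled points, and the 4 cDC1 genes of the set all lie at the upper right. Irf4, Cd209a and the B cell genes lie at the lower left. Of all tested genes, 31.3% were higher and 35% lower in pool 2 of both sexes. Macrophage and thymic epithelial genes are not drawn.

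Markers of other cell types were also set by pool number, and their part in these differences was not tested. Of all tested genes, 31.3% were higher and 35% lower in pool 2 of both sexes (18.3% and 47% with library size alone). These shares are the background for the list counts here and below. Of 12 macrophage and monocyte genes, 9 were higher in pool 2 of both sexes under either scaling, and the list summed to 2822, 5107, 2047 and 7074 normalized CPM in female pools 1 and 2 and male pools 1 and 2. Its most abundant gene, Lyz2, had ratios of 2.06 in females and 3.96 in males, and C1qb, which encodes a complement subunit made by macrophages, 2.60 and 5.65, while Ly6c2, a monocyte antigen also found on plasmacytoid dendritic cells, had 0.608 and 1.23. Of 10 B cell genes, 9 were tested and 9 were lower in pool 2 of both sexes under either scaling, and the list summed to 4696, 3169, 3893 and 2619. Its most abundant gene, Cd79a, had ratios of 0.634 and 0.782, and Cd79b had 0.809 and 0.725. Of 10 thymic epithelial genes, 9 were higher in pool 2 of both sexes, or 5 with library size alone, with sums of 385, 685.5, 431 and 651. Spint2, its most abundant gene, had ratios of 1.44 and 1.36, and the keratin genes Krt8 and Krt18 had 2.82 and 3.19 in females and 2.02 and 1.97 in males. Of 12 plasmacytoid dendritic cell genes, 4 were higher and 5 lower (2 and 7 with library size alone), near the shares of all tested genes. This list summed to 3740, 3470, 3043 and 4156, with Ly6d as the most abundant. Ly6d had ratios of 0.796 and 1.45, Irf7, the inducer of type I interferon, 1.58 and 1.34, and Pld4 0.904 and 0.799. No gene of these 4 lists was at 0 in all pools.

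Thymocyte genes stood apart in male pool 1, where the list of 10 summed to 1155 normalized CPM, against 419, 333 and 426 in female pools 1 and 2 and male pool 2, with Lck as the most abundant gene. Lck had 277 in male pool 1 and 50.2 in male pool 2, Cd3g had 250 and 36.4, and Cd8a had 143 and 152. Of 8 tested, 8 had a log2 fold change above 0 between males and females, against 53.2% of all tested genes. By edgeR's quasi-likelihood test 2 had an unadjusted p under 0.05, against 0.442% of all tested genes. The part of the thymocyte genes in the sex comparison of the dendritic cell genes was not tested beyond leaving out male pool 1. Neutrophil genes summed to 113 and 114 in females and 251 and 422 in males. Cxcr2, the most abundant, had 177 in male pool 2 and from 34.4 to 51.7 in the other pools. S100a9 had a log2 fold change of 2.08 (standard error 0.33) and S100a8 of 1.99 (standard error 0.39), with both male pools above both female pools, as for 9.47% of all tested genes. Neither passed the adjusted threshold (adjusted p = 1 for each by edgeR's quasi-likelihood test). Natural killer cell genes summed to 92.4 in male pool 1 and at most 46.0 in the others, with Klrk1, Nkg7 and Gzma as the most abundant. Cortical epithelial genes (Psmb11, Ccl25 and Prss16 foremost) summed to at most 69.0 in a pool, and fibroblast genes (Dcn, Col3a1 and Col1a2 foremost) to at most 78.9.

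Genes of dendritic cell maturation, ligands and signalling were read from lists of the same kind. Which cells of the bulk pools made these transcripts was not tested. Dendritic cells that mature switch on Ccr7, the receptor that guides their migration, along with chemokines. Of 12 such genes, 2 had a log2 fold change above 0 between the sexes, against 53.2% of all tested genes. The list had a median of -0.22, and 0 of its genes passed the adjusted threshold by edgeR's quasi-likelihood test. In pool 2 of both sexes 8 were higher and 2 lower, against 5 and 4 with library size alone. Ccl17 had 327, 789, 263 and 2305 normalized CPM in female pools 1 and 2 and male pools 1 and 2, and Ccl5 had 698, 1378, 439 and 3686, with male pool 2 far above the rest for both. Ccr7 had 2300 and 1691 in females and 1926 and 1125 in males, lower in pool 2 of each. Ccl22 had ratios of 1.36 in females and 1.40 in males.

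Of the ligands for receptors in the set, Flt3l, the growth factor bound by FLT3, had 7.13 to 11.9 normalized CPM over the 4 pools. Xcl1, the chemokine that XCR1 binds, is secreted by mTECs, but its source in these bulk pools was not tested. It had 14 and 4 counts in female pools 1 and 2 and 41 and 18 in male pools 1 and 2. Its log2 fold change of male over female was 0.94 (standard error 0.58, adjusted p = 1 by edgeR's quasi-likelihood test). Cd47, the ligand of SIRPA found on most cells, averaged 61.3 RPKM, above the 13.9 of Sirpa. Icam1 was the most abundant gene of this list, at 562 normalized CPM as the mean over pools. Of 12 genes for dendritic cell growth factors, their receptors and signalling, 10 were tested, and of these 1 was higher and 4 were lower in pool 2 of both sexes (1 and 6 with library size alone). The 1 tested gene that was higher was Csf2ra, a chain of the GM-CSF receptor, with ratios of 1.93 and 1.64 in females and males, whereas Stat3, the most abundant, had 0.556 and 0.413 and Csf2rb 0.891 and 1.03. Of the 11 further genes of both cDC types found in the table, 3 were higher and 6 lower in pool 2 of both sexes (2 and 8 with library size alone). The most abundant were Cd74, the MHC class II chaperone (ratios 0.990 and 1.23), Cst3 (1.68 and 3.77) and H2-DMb2 (0.769 and 0.660). Between males and females, 0 genes of the cDC1, cDC2, shared and signalling lists passed the adjusted threshold or an unadjusted p under 0.05 by edgeR's quasi-likelihood test. Their median log2 fold changes were 0.073, -0.12, -0.0059 and -0.073.

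The tested genes closest in pattern to Flt3 were Ano8, Sulf2 and Prkce, with root mean square differences of 0.027, 0.028 and 0.032 in centred log2(normalized CPM + 1) over the 4 pools. Of the 9 other dendritic cell genes, Zbtb46 was the closest by this measure, at 0.25 and rank 1724 of 10864, and Batf3 the farthest, at 1.12 and rank 10723. Xcr1 and Clec9a were at 0.46 and 0.59, and Irf4 at 0.30. With 4 pools, many genes lie close to any given pattern, and nearness says nothing of a shared cell type.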

How the data were processed

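RNA of 4 pools of sorted mTECs, 2 per sex, was sequenced from cDNA made with the SMARTer Ultra Low kit. Per the submitters' processing notes and the paper's methods, the authors trimmed reads with Trimmomatic, mapped them to mm9 by TopHat2 and assigned them to genes by HTSeq. Versions, gene annotation and strand setting are not given in the sources used here. The deposited values are raw counts, and 5 further rows of unassigned reads (66.9% to 70.2% of a pool's total) stayed out of library sizes and tests.

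Males were compared with females by edgeR 4.0.16's quasi-likelihood test in R 4.3.3, with TMM normalization (factors 1.05 and 1.03 for females, 1.18 and 0.780 for males), filterByExpr (min.count 10), a prior count of 0.125, sex as the only term and Benjamini-Hochberg adjustment at 0.05 over all tested genes, two-sided. Standard errors were obtained as log2 fold change over the root of F. The common biological coefficient of variation was 0.349. DESeq2 1.42.0 was an alternative. The test was checked on simulated data. RPKM used all annotated exons of GENCODE vM1 on NCBIM37, in which 21093 symbols (90.3%) had a single gene, and the authors' annotation may give other lengths. A count of 3, the limit that a count of 0 allows, equals 0.812, 1.48, 0.357 and 1.15 normalized CPM in the order above, for counting error only. No pair of pools agreed within sampling noise (lowest chi-square per degree of freedom 11.0). All 10 dendritic cell genes were named. Ddx3y and Eif2s3y were named for having the smallest adjusted p. From each list of further genes the 3 most abundant were named (1 of them is not reported here), as were Ptprc, H2-Aa, H2-Ab1, Epcam, Enpep and Aire, and the 3 genes closest to Flt3 in pattern. Tlr3, Cx3cr1, Itgam, Ccl17, Xcl1, Flt3l, Krt5 and Krt14, the relatives of Cd209a and Sirpa, the at least 2-fold rule and the other scalings of pool 2 against pool 1 were chosen after values were seen. The genes and lists were chosen with earlier results of these data known, so no list here is independent support. Python 3.11.15 with pandas 2.3.3 and matplotlib 3.10.9 made the summaries and plots.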

Additional observations from a re-analysis of the deposited data

How the results depend on the processing

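None of the 10 dendritic cell genes passed the adjusted threshold between the sexes with DESeq2, edgeR's exact test, upper-quartile normalization, scaling to library size only, the low-count filter removed, a minimum of over 1 CPM in at least 2 pools or the replicate block. With a pool left out the number ran from 0 to 1, the 1 being Batf3 without male replicate 1 (log2 fold change 1.46), where 5.72% of all tested genes also passed. Over all genes the number past the threshold was 0, also with upper-quartile normalization and over 1 CPM. It was 3 with DESeq2, 5 with library size only, 8 with the exact test, 17 with the replicate block and 26 with no filter. It ran from 0 to 646 with a pool left out (646 of 11292 tested without male replicate 1, 70 without male replicate 2). Its cause was not tested.

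Over all settings, 108 of 120 single-gene log2 fold changes kept direction and side of the threshold, 11 changed sign and 1 (Batf3) passed. Itgax was -0.11 with library size only and -0.0013 with the replicate block. With a pool left out, the log2 fold change ran from -0.54 to 0.51 for Itgax, from -1.29 to 1.67 for Batf3, from -0.19 to 0.62 for Xcr1, from -0.15 to 1.13 for Clec9a, from -0.85 to 0.20 for Irf8 and from -0.35 to 0.12 for Cd209a. Flt3, Irf4, Sirpa and Zbtb46 stayed below 0 in every setting, but their size moved with a pool left out. The range was -0.46 to -0.072 for Flt3 and -0.63 to -0.028 for Irf4. For Sirpa it was -0.87 to -0.30, and for Zbtb46 -0.23 to -0.020. The summed cDC1 level between the sexes was 0.15 as a mean of log2 values and 0.33 without the most abundant gene, and ran from -0.67 to 0.35 with a pool left out. In the same fits the sum of all 10 genes ran from -0.54 to 0.080, the ratio of cDC1 to cDC2 from -0.41 to 0.84 and the sum relative to Ptprc from -0.98 to 0.11. With longest transcripts, 6 of 10 genes kept their rank by RPKM.

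Pool numbers 1 and 2 recur in both sexes, which would allow a replicate block. Across genes, the female and the male change from pool 1 to pool 2 had a correlation of 0.52. Nothing in the labels ties equal numbers to the same mice or day, and 2 pairs are too few to decide, so the block stayed an alternative. It called 0 of the 10 genes. The p-values measure the spread between pools of 10 mice, and 2 pools a sex limit every comparison.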
